A study of Homo sapiens with 6 samples.

Results

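Selective autophagy cargo receptors are proteins that hold a cargo with 1 part of the molecule and an ATG8 protein of the autophagosome membrane with another, so that the cargo is enclosed and carried to the lysosome. The receptors described here were 10 genes chosen by symbol: SQSTM1, NBR1, OPTN, CALCOCO2, TAX1BP1, TOLLIP, WDFY3, NCOA4, RETREG1 and FUNDC1. All 10 had a row in the table of 60664 genes, and all 10 passed the filter on low counts that left 15900 genes for testing. The rule that chose them names what their proteins do and sets no measured value, but the choice was made with earlier results of these libraries known.

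The series compared PC9OR cells, a human lung cancer line, with and without knockdown of GLMP, and its title links GLMP to autophagy, to RhoA and to resistance against EGFR tyrosine kinase inhibitors. GLMP encodes a glycosylated protein of the lysosomal membrane. RNA-seq counts were given for 3 libraries labelled NC, whose genotype is given as control, and 3 labelled si-GLMP, whose genotype is given as GLMP knockdown. Every library came from the same line, so any trait of PC9OR is shared by both groups. The siRNA sequences, the number of siRNAs, the time after transfection and the number of clones behind the line were not given in the sources used here, nor is it stated that the replicates were separate cultures, so a p-value here reflects only how far these libraries spread, which may be technical.

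As background, the receptors divide by cargo. SQSTM1 (p62), NBR1, OPTN, CALCOCO2 (NDP52) and TAX1BP1 bind ubiquitin chains on protein aggregates, damaged mitochondria or bacteria, and TOLLIP does so through a different ubiquitin-binding domain. WDFY3 (ALFY) is a very large scaffold that works with SQSTM1 on aggregates. NCOA4 carries ferritin, the iron store, to the lysosome, RETREG1 (FAM134B) sits in the endoplasmic reticulum and marks its sheets for degradation, and FUNDC1 sits in the outer mitochondrial membrane. Several receptors are themselves degraded with their cargo, so their protein level depends on lysosomal turnover as well as on mRNA, and only mRNA was measured here.

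Library totals ran from 19896875 to 22372878 counts, and 3 counts, taken as the floor of detection, corresponded to 0.133 to 0.150 CPM (counts scaled to a common library size, here with TMM factors). GLMP itself fell from 15.9 ± 0.796 CPM in NC to 3.34 ± 0.59 CPM in si-GLMP (SD of 3 libraries; edgeR p(adj) = 1.16e-18, a p-value adjusted over all tested genes by the Benjamini-Hochberg method). Its exons share 607 bases with TMEM79 on the opposite strand, which rose by 0.49 on the log2 scale (edgeR p(adj) = 9.95e-05). Of 8 markers of lung epithelial cancer cells, 7 could be tested, and the 8 summed to between 8304 and 9385 CPM per library, with 2 called higher and 1 lower. The lung lineage factor NKX2-1 was at or near 0, with 8 counts in all in NC and 0 in si-GLMP. NAPSA, also among the 8 markers, was low too, with 22 counts in all in NC and 32 in si-GLMP. The sum thus came almost wholly from the keratins, EPCAM and CDH1. The 8 leukocyte markers summed to between 1.21 and 2.35 CPM per library, with MS4A1, LYZ and TYROBP at 0 in all libraries, and the 5 endothelial markers to between 5.02 and 7.73 CPM, with 0 called. The 7 fibroblast markers summed to 6.48 to 8.23 CPM in NC and 10.7 to 12.8 CPM in si-GLMP, of which COL1A1 was called higher, from 5.38 to 10.1 CPM, and made up most of the sum. COL1A2, with means of 0.43 CPM without and 0.307 with knockdown, was too low to be tested. PDGFRA, with 0.512 and 0.338, and PDGFRB, with 0.818 and 1.19, moved in opposite directions and were not called. DCN had 1 count in all in NC and 0 in si-GLMP, LUM had 0 and 1, and COL3A1 was at 0. The part of COL1A1 in the results below was not tested. The share of counts from mitochondrially encoded genes was 6.57%, 8.76% and 6.51% in NC replicates 1 to 3. In si-GLMP replicates 1 to 3 it was 5.19%, 5.51% and 5.33%. The groups did not overlap in this share, and NC replicate 2 stood apart as the highest. The part of this difference in the results below was not tested.

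The transcripts of 4 of the 10 receptors differed between the si-GLMP and NC libraries, in both directions. SQSTM1, OPTN and TOLLIP rose, by 40.0%, 28.4% and 20.5% of their NC means, and NCOA4 fell by 27.2%. The other 6, NBR1, CALCOCO2, TAX1BP1, WDFY3, RETREG1 and FUNDC1, did not pass the test. These calls used edgeR's quasi-likelihood test at a threshold of 0.05 on p(adj), under which 12.0% of all tested genes were higher, 11.3% lower and 23.3% called in either direction. Among the receptors 3 of 10 were higher and 1 of 10 lower, a total of 40.0%, a count that no test here sets apart from that background. Their median log2 fold change was -0.03, and that of all tested genes was 0.00. In bulk RNA, a change in every cell and a change in the share of cells with a given level cannot be told apart.

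**Figure D1:**
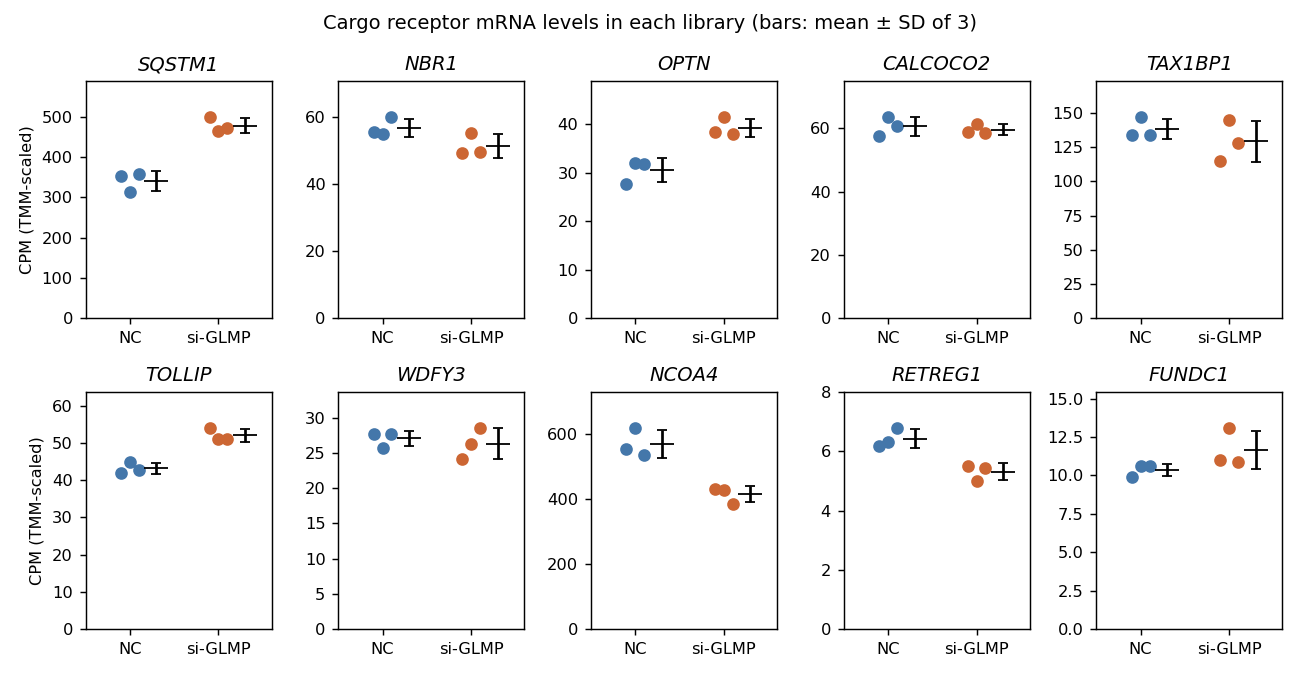
Level of each cargo receptor mRNA in each of the 6 libraries (y axis, CPM scaled by TMM; each panel has its own axis from 0), with the mean and SD of the 3 libraries of a group as a bar beside the points. The si-GLMP points lie above all NC points for SQSTM1, OPTN, TOLLIP and FUNDC1, below them for NCOA4 and RETREG1, and overlap them for the other 4.

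Among the ubiquitin-binding receptors, SQSTM1 (ENSG00000161011; GRCh38 chromosome 5, 179806398 to 179838078, plus strand) moved most. SQSTM1 forms filaments that gather ubiquitinated proteins, and it also binds KEAP1, the inhibitor of the transcription factor NRF2. Its level was 352, 313 and 359 CPM in NC replicates 1 to 3 and 499, 464 and 471 CPM in si-GLMP replicates 1 to 3. Every si-GLMP library was above every NC library, and the difference was far wider than the spread within either group. The log2 fold change was 0.49 ± 0.06 (SE; edgeR p(adj) = 3.45e-08), with a 95% interval from 0.36 to 0.61. NC replicate 2 was the lowest library for SQSTM1, and without it the log2 fold change was 0.43 (edgeR p(adj) = 1.39e-06).

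Part of the SQSTM1 exons lies opposite other genes, and the strand setting of the counting was not given in the sources used here. MRNIP, on the other strand, shares 1582 bases, 20.7% of the SQSTM1 exonic length, and MGAT4B shares 105 bases, 1.37%. MRNIP was at 20.4 ± 1.45 CPM in NC against 21.4 ± 0.417 CPM after knockdown (SD of 3 libraries; edgeR p(adj) = 0.666). MGAT4B, a glycosyltransferase gene that is the neighbour of SQSTM1, rose from 127 ± 4.41 to 177 ± 7.06 CPM (SD of 3 libraries; log2 change 0.47, edgeR p(adj) = 1.03e-07). The neighbouring pair thus rose by similar amounts on the log2 scale.

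OPTN (optineurin; ENSG00000123240; chromosome 10, 13099449 to 13138308, plus strand) binds ubiquitin on mitochondria and bacteria and is switched on by the kinase TBK1. It had 27.8, 32.1 and 31.9 CPM in NC, against 38.5, 41.5 and 38.0 in si-GLMP. The groups did not overlap, with NC replicate 1 the lowest of the 6. OPTN rose by 0.36 ± 0.09 on the log2 scale (SE; edgeR p(adj) = 0.00106), with a 95% interval from 0.19 to 0.53. Its exons share 147 bases with CCDC3 on the opposite strand, a gene with 60 counts in all in NC and 38 in si-GLMP.

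NBR1, CALCOCO2 and TAX1BP1, the other receptors of this kind, gave no call. NBR1 (ENSG00000188554; chromosome 17, 43170481 to 43211689), a relative of SQSTM1 that joins its condensates, had 55.5, 54.9 and 60.0 CPM in NC and 49.2, 55.4 and 49.5 CPM in si-GLMP. The si-GLMP replicate 2 library fell among the NC libraries, and the log2 fold change of -0.15 had a 95% interval from -0.30 to 0.01 (edgeR p(adj) = 0.180). CALCOCO2 (ENSG00000136436; chromosome 17, 48830988 to 48866522), a receptor for bacteria and mitochondria, had 57.7, 63.5 and 60.6 CPM in NC and 58.7, 61.5 and 58.4 CPM in si-GLMP. Its log2 fold change of -0.02 had the narrowest reach from 0 of the 10 receptors, with a 95% interval from -0.17 to 0.12. TAX1BP1 (ENSG00000106052; chromosome 7, 27739331 to 27844564), which also restrains NF-kB signalling together with TNFAIP3, had 134, 147 and 134 CPM in NC, and 115, 145 and 128 in si-GLMP. The 3 si-GLMP libraries of TAX1BP1 were spread widely, with a coefficient of variation of 11.5% against 5.36% in NC, and its 95% interval ran from -0.24 to 0.05. For all 3 genes the intervals leave out a rise as large as that of SQSTM1.

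Opposite NBR1, the long noncoding transcript AC060780.1 shares 463 bases, 5.51% of the NBR1 exonic length. AC060780.1 fell from 11.2 ± 1.36 to 7.43 ± 1.53 CPM (SD of 3 libraries; log2 change -0.59, edgeR p(adj) = 0.000879). Its part in the NBR1 value was not tested. Opposite TAX1BP1, JAZF1 shares 415 bases, 4.53%, and had 88 counts in all in NC and 70 in si-GLMP, and the antisense gene AC005091.1 had 1 in each group.

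TOLLIP (ENSG00000078902; chromosome 11, 1274371 to 1309654, minus strand) was discovered as an inhibitor of Toll-like and interleukin-1 receptor signalling and also clears protein aggregates. Its level was 41.9, 44.9 and 42.9 CPM in NC and 54.1, 51.2 and 51.0 CPM in si-GLMP. The groups did not overlap, and each had a coefficient of variation under that of SQSTM1. TOLLIP rose by 0.27 ± 0.08 on the log2 scale (SE; edgeR p(adj) = 0.00792), with a 95% interval from 0.11 to 0.43. This was the only call among the 10 receptors that a single library could undo, with an edgeR p(adj) of 0.0624 and a log2 fold change of 0.25 without NC replicate 1.

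WDFY3 (ENSG00000163625; chromosome 4, 84669610 to 84966391) had 27.8, 25.8 and 27.7 CPM in NC and 24.2, 26.3 and 28.6 CPM in si-GLMP. The si-GLMP libraries lay on both sides of the NC libraries, and the log2 fold change of -0.04 had a 95% interval from -0.22 to 0.14 (edgeR p(adj) = 0.812). Its antisense transcript WDFY3-AS1 had 0 counts in every library.

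NCOA4 (ENSG00000266412; chromosome 10, 46005088 to 46030714, minus strand) was the only receptor called lower. Its level was 555, 619 and 536 CPM in NC and 432, 427 and 386 CPM in si-GLMP. The lowest NC library was thus well above the highest si-GLMP library. The log2 fold change was -0.46 ± 0.07 (SE; edgeR p(adj) = 1.89e-07), with a 95% interval from -0.59 to -0.33. NC replicate 2 was the highest library for NCOA4, and without it the log2 fold change was -0.39 (edgeR p(adj) = 6.80e-06). The table also held 4 processed copies of NCOA4 and 1 of SQSTM1, and none of the 5 had more than 2 counts summed over all libraries.

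RETREG1 and FUNDC1, the receptors built into the membrane they deliver, had the fewest counts of the 10 and gave no call. RETREG1 (ENSG00000154153; chromosome 5, 16473038 to 16617058) had 123, 129 and 153 counts in NC and 113, 106 and 112 in si-GLMP. In CPM its groups did not overlap, at 6.43 ± 0.322 in NC and 5.32 ± 0.279 in si-GLMP (SD of 3 libraries), yet the log2 fold change of -0.28 ± 0.15 missed the threshold (edgeR p(adj) = 0.196). An antisense gene, AC022113.1, shares 8.93% of the RETREG1 exonic length and had 45 counts in all in NC and 18 in si-GLMP. FUNDC1 (ENSG00000069509; chromosome X, 44523639 to 44543001) had 197, 217 and 239 counts in NC and 226, 277 and 224 in si-GLMP. Its groups did not overlap in CPM either, with 10.4 ± 0.416 in NC and 11.7 ± 1.22 in si-GLMP, and its log2 fold change was 0.17 ± 0.12 (edgeR p(adj) = 0.353). Across the 10 receptors the groups were apart in 6, 4 of them higher and 2 lower, where 36.5% of all tested genes were apart. At these counts the 95% intervals, from -0.58 to 0.03 for RETREG1 and from -0.08 to 0.41 for FUNDC1, reach changes as large as those of OPTN or TOLLIP.

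**Figure D2:**
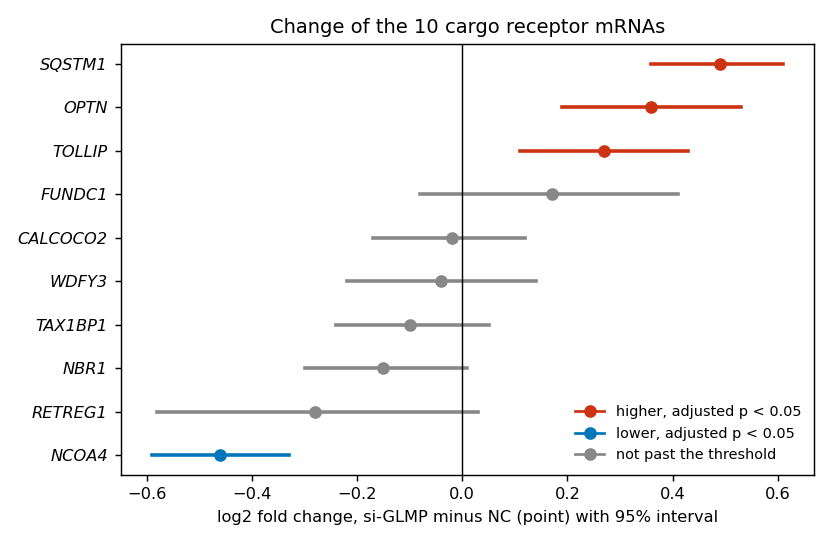
Log2 fold change of each cargo receptor, si-GLMP minus NC (x axis, points), with its 95% interval from the edgeR fit (lines), ordered by the change. The intervals of SQSTM1, OPTN and TOLLIP lie above 0 and that of NCOA4 below 0, while those of the other 6 include 0.

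The receptors differed far more in abundance than in their response. To order the receptors by level, CPM were divided by the length in kilobases of the principal transcript of the annotation. On that scale NCOA4 led in NC with 247 ± 18.8 CPM per kb, followed by SQSTM1 with 114 ± 8.33, TAX1BP1 with 47.8 ± 2.57 and CALCOCO2 with 16.5 ± 0.784 (SD of 3 libraries). NBR1 with 12.2 and TOLLIP with 11.9 overlapped between libraries, as did OPTN with 8.78 and FUNDC1 with 8.67. RETREG1 with 2.04 and WDFY3 with 1.90 were lowest. In si-GLMP the first 4 kept their order and TOLLIP, at 14.4, stood above NBR1, at 11, without overlap. With the length of all annotated exons in place of the principal transcript, NCOA4, SQSTM1 and TAX1BP1 were again the top 3 in both groups, and FUNDC1 moved up to the fourth place in NC.

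The gap between the leading pair narrowed after knockdown, with NCOA4 still the higher. Per kilobase of principal transcript, NCOA4 was 2.16 times the level of SQSTM1 in NC and 1.12 times in si-GLMP. In si-GLMP the lowest NCOA4 library and the highest SQSTM1 library both rounded to 167 CPM per kb. Per kilobase of all annotated exons the distance that was left was wider, with NCOA4 at 139.6 and SQSTM1 at 44.6 CPM per kb in NC, and 102 and 62.4 CPM per kb in si-GLMP. The ratio of their raw counts, which does not depend on how libraries are scaled, was 1.58, 1.98 and 1.49 NCOA4 counts per SQSTM1 count in NC, against 0.87, 0.92 and 0.82 in si-GLMP. The raw ratio is not scaled for the lengths of the genes, so it compares libraries and does not say which gene was more abundant. All NC ratios were above all si-GLMP ratios, which follows from the separate changes of the pair given above, and no test of the ratio is given. Within the summed level of the 10 receptors, SQSTM1 made up 24.3% ± 2.44 in NC and 35.5% ± 1.46 in si-GLMP, and NCOA4 52.4% ± 2.46 and 39.9% ± 1.14 (SD of 3 libraries). The sum itself was 471 ± 13.9 CPM per kb in NC and 451 ± 14.9 in si-GLMP.

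**Figure D3:**
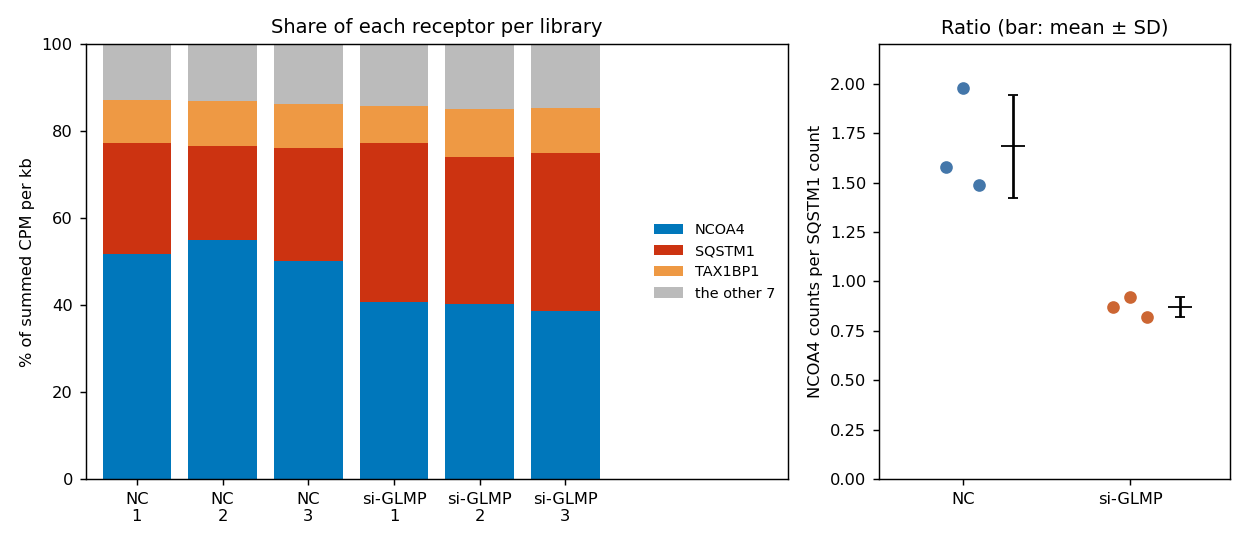
Left, share of each cargo receptor in the summed level of all 10 (y axis, percent of CPM per kilobase of principal transcript) in each library; right, NCOA4 counts per SQSTM1 count in each library, with mean and SD as a bar. NCOA4 and SQSTM1 together hold between 74.1% and 77.2% in every library, and the boundary between them is lower in the 3 si-GLMP libraries, where the ratio is 0.82 to 0.92.

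Several iron genes rose where NCOA4 fell. Of 10 listed genes of ferritin and iron handling, all of them tested, 4 were higher, 0 lower and 6 without a call, and the median log2 change was 0.21. The share called was 40.0%, against 23.3% of all tested genes, a difference not tested. FTL, the ferritin light chain, rose from 1437 ± 72 to 2005 ± 84.5 CPM (SD of 3 libraries; log2 change 0.48, edgeR p(adj) = 2.73e-08). TFRC, the transferrin receptor that brings iron into the cell, rose from 341 ± 18.1 to 495 ± 34.9 CPM (log2 change 0.54, edgeR p(adj) = 2.78e-09). STEAP3, an endosomal ferric reductase, rose by 0.34 (edgeR p(adj) = 0.000147). IREB2, an iron-responsive RNA-binding protein, rose by 0.25 (edgeR p(adj) = 0.0118), a call lost without NC replicate 2 (0.0667), si-GLMP replicate 2 (0.116) or si-GLMP replicate 3 (0.0513).

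FTH1, the ferritin heavy chain that NCOA4 binds, was singled out for that role after its values were seen. It had 1036, 601 and 1071 CPM in NC, and 1663, 1350 and 1442 in si-GLMP. The groups did not overlap, but NC replicate 2 was far under the other NC libraries and the log2 fold change of 0.72 ± 0.27 was not called (edgeR p(adj) = 0.149). Without NC replicate 2 it was 0.50 and was called (edgeR p(adj) = 1.99e-07). With all libraries it was called by DESeq2 (adjusted p = 0.0269) and not by limma-voom (adjusted p = 0.138). FTH1 shares 62.4% of its exonic length with BEST1 on the opposite strand, and both ferritin genes have many processed copies in the genome, so their counts are uncertain to that extent. HERC2, the ligase that marks NCOA4 for degradation and a member of the list of binding partners, was named for that role after its values were seen. It was not called (log2 change -0.14, edgeR p(adj) = 0.133), although every si-GLMP library was below every NC library.

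NRF2 and its targets were counted as a list because SQSTM1 both binds KEAP1 and is a target of NRF2. Of 18 genes, 9 were higher, 0 lower and 9 without a call, and the median log2 change was 0.19. Over all tested genes 12.0% were higher and 11.3% lower, and whether this list differed from that background was not tested. OSGIN1, an oxidative stress growth inhibitor, rose from 22.7 ± 1.99 to 56 ± 3.5 CPM (SD of 3 libraries; log2 change 1.30, edgeR p(adj) = 7.71e-18). Another gene on the same strand shares 13.9% of the OSGIN1 exonic length, and its part in the OSGIN1 value was not tested. TXNRD1, the cytosolic thioredoxin reductase, rose by 0.46 (edgeR p(adj) = 5.94e-08). TALDO1, of the pentose phosphate pathway, rose by 0.31 and GCLM, a subunit of the enzyme that starts glutathione synthesis, by 0.27. GCLC, the other subunit of that enzyme, was named after its values were seen. It was not called (log2 change -0.18, edgeR p(adj) = 0.142), although every si-GLMP library was below every NC library. NQO1, a classical target named after its values were seen, was not called (log2 change 0.07, edgeR p(adj) = 0.467). HMOX1, another classical target named after its values were seen, was called higher (log2 change 0.72, edgeR p(adj) = 0.00166). The si-GLMP libraries of HMOX1 were spread widely, at 11.3, 10.8 and 18.5 CPM against 8.18, 8.42 and 7.94 in NC. The mRNA of NRF2 itself, NFE2L2, had a log2 fold change of 0.11 (edgeR p(adj) = 0.292) and that of KEAP1 -0.13 (edgeR p(adj) = 0.190), both named for their role after their values were seen. KEAP1 was called after removal of the GC and length trend (log2 change -0.17, edgeR p(adj) = 0.0128).

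The promoters of the receptors were read for the NRF2 motif and for 2 others, to show which receptor genes carry these letters near their start. RefSeq promoters (GRCh38.p14; 250 bases before to 50 after each start) were found for 9 of the 10 genes, in 17 windows, and WDFY3 had no entry. The core of the antioxidant response element, TGACNNNGC on either strand, was present in 4 of the 17 windows, 1 each of TOLLIP, CALCOCO2, RETREG1 and NCOA4, and in 14.6% of the promoter windows of tested genes. The motif is in capitals in these 30-base windows, written 5′ to 3′ on the strand of the gene, and appears as its reverse complement in CALCOCO2 and RETREG1.
TOLLIP, chr11:1309808-1309837, minus strand: acaaccgtcaTGACTGGGCatgcgcaaacg
CALCOCO2, chr17:48830896-48830925, plus strand: cgctcctgggGCCCGGTCAcctgaacacta
RETREG1, second start, chr5:16509050-16509079, minus strand: ttaggtgggtGCCTAGTCAtgccagaaaaa
NCOA4, second start, chr10:46019957-46019986, minus strand: ctctgaaagcTGACAGTGCtctaactgcgc
TOLLIP was the only one of these 4 genes that rose, and NCOA4 fell. SQSTM1 and OPTN had no match in their windows. The E-box core CACGTG, which lies inside the CLEAR element bound by TFEB and its relatives, was in 0 of the 17 windows and in 9.13% of the windows of tested genes. The letters TGANTCA, a looser form of the AP-1 site with any middle base allowed, were in 1 window, of NCOA4, and in 5.61% of those of tested genes. The NCOA4 match read TGAATCA, so it is a match to the looser form only. These matches describe the letters of the windows only.

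Other selective autophagy receptors, 20 genes for the endoplasmic reticulum, mitochondria, Golgi and glycogen, gave 4 higher, 2 lower and 14 without a call. Their median log2 change was 0.05. Calls in either direction made up 23.3% of all tested genes, and whether this list differed from that share was not tested. RTN3, a receptor for tubules of the endoplasmic reticulum, rose from 157 ± 5.16 to 206 ± 14.3 CPM (SD of 3 libraries; log2 change 0.39, edgeR p(adj) = 5.89e-06). BCL2L13, a mitochondrial receptor, rose by 0.25 (edgeR p(adj) = 0.00803). The rise of YIPF4, a Golgi receptor (0.26, edgeR p(adj) = 0.0212), was not called without NC replicate 1 (0.0740), NC replicate 2 (0.102) or si-GLMP replicate 2 (0.161). The fall of ATL3, an atlastin of the endoplasmic reticulum (-0.22, edgeR p(adj) = 0.0184), was not called without NC replicate 1 (0.0555), NC replicate 2 (0.0619), NC replicate 3 (0.0746) or si-GLMP replicate 3 (0.101), and the count of lower receptors was 0 without any 1 of these 4 libraries.

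The ATG8 proteins are the partners on the membrane that all receptors bind. Of 17 genes for ATG8 proteins and their conjugation, 14 were tested, of which 4 were higher, 2 lower and 8 without a call, and the median log2 change was -0.06. Calls made up 42.9% of the tested genes of the list, against 23.3% of all tested genes, a difference not tested. ATG5, part of the complex that attaches ATG8 to lipid, rose by 0.43 (edgeR p(adj) = 5.94e-05), and ATG7, the activating enzyme, by 0.33 (edgeR p(adj) = 0.00243). ATG7 shares 18.1% of its exonic length with a gene on the opposite strand, whose part in the ATG7 value was not tested. GABARAPL1, an ATG8 protein, fell from 21.1 ± 1.5 to 16.2 ± 0.845 CPM (SD of 3 libraries; log2 change -0.38, edgeR p(adj) = 0.00411). Without NC replicate 3 this call was lost (edgeR p(adj) = 0.0578). GABARAPL2, an ATG8 protein named after its values were seen, rose from 30.6 ± 1.74 to 36.4 ± 1.04 CPM (SD of 3 libraries; log2 change 0.25, edgeR p(adj) = 0.0242), a call lost without NC replicate 2 (0.0719) or NC replicate 3 (0.122). MAP1LC3B, the LC3 protein most used as a marker of autophagosomes and likewise named after its values were seen, was not called (log2 change -0.21, edgeR p(adj) = 0.0755), but passed when NC replicate 2 (0.0324) or the si-GLMP library of that number (0.0403) was left out and after removal of the GC and length trend (0.0339). ATG16L1, the partner of ATG5, fell by 0.24 on the log2 scale (edgeR p(adj) = 0.0192), a call lost without NC replicate 1 (0.181), si-GLMP replicate 2 (0.0595) or si-GLMP replicate 3 (0.0554). The count of higher genes was 2 without NC replicate 2 or NC replicate 3, and that of lower genes was 1 without NC replicate 1, NC replicate 3 or si-GLMP replicate 3 and 4 after removal of the GC and length trend. GABARAP was listed with 10 counts in all in NC and 12 in si-GLMP, and 30.5% of its exonic length lies within another gene on the same strand, so its level cannot be read from these counts.

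Among the initiation complex and the kinases that act on receptors, 2 of 14 tested genes were higher and 0 lower, with a median log2 fold change of 0.07. The share called was 14.3%, against 23.3% of all tested genes, a difference not tested. IKBKE, the close relative of TBK1, rose from 21.5 ± 1.56 to 31.6 ± 1.56 CPM (SD of 3 libraries; log2 change 0.55, edgeR p(adj) = 5.15e-06). TBK1, which phosphorylates OPTN and SQSTM1, was not called (0.19, edgeR p(adj) = 0.0761), but passed without si-GLMP replicate 1 (0.00966) and after removal of the GC and length trend (0.0254). TANK, an adaptor of both kinases, was not called either (0.23, edgeR p(adj) = 0.110). ATG101, a subunit of the ULK1 complex, rose by 0.29 (edgeR p(adj) = 0.00972), a call lost without NC replicate 1 (0.0790), si-GLMP replicate 1 (0.0842) or si-GLMP replicate 3 (0.0506). An antisense gene shares 19.2% of the ATG101 exonic length, and its part in the ATG101 value was not tested. The count of higher genes was 1 when NC replicate 1 or si-GLMP replicate 3 was left out, and 4 after removal of the GC and length trend.

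The binding partners and regulators of the receptors moved in both directions, with 7 of 21 higher, 3 lower and 11 without a call. Their median log2 change was 0.01. In all 47.6% were called, against 23.3% of all tested genes, a difference not tested. TOM1, the endosomal partner of TOLLIP, rose from 16.8 ± 0.217 to 23.9 ± 1.38 CPM (SD of 3 libraries; log2 change 0.51, edgeR p(adj) = 6.24e-05). RNF11 and TNFAIP3, which work with TAX1BP1 to end NF-kB signalling, rose by 0.49 (edgeR p(adj) = 2.38e-07) and 0.41 (edgeR p(adj) = 6.61e-06). VCP, the ATPase that extracts ubiquitinated proteins, rose by 0.39 (edgeR p(adj) = 3.70e-06).

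The 3 lower partners, named because they were few after their values were seen, were MAP2K5, PRKCI and MYO6. MAP2K5 and PRKCI are kinases with a PB1 domain, the fold through which SQSTM1 also joins itself. MAP2K5 had 8.03, 8.17 and 8.52 CPM in NC and from 4.89 to 5.38 in si-GLMP, without overlap (log2 change -0.70, edgeR p(adj) = 0.000208). PRKCI had a log2 fold change of -0.27 (edgeR p(adj) = 0.00432). MYO6, the myosin that OPTN, CALCOCO2 and TAX1BP1 bind, fell from 83.2 ± 0.882 to 67.8 ± 1.55 CPM (log2 change -0.30, edgeR p(adj) = 0.00119). With the GC and length trend removed, 5 partners were lower instead of 3.

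**Figure D4:**
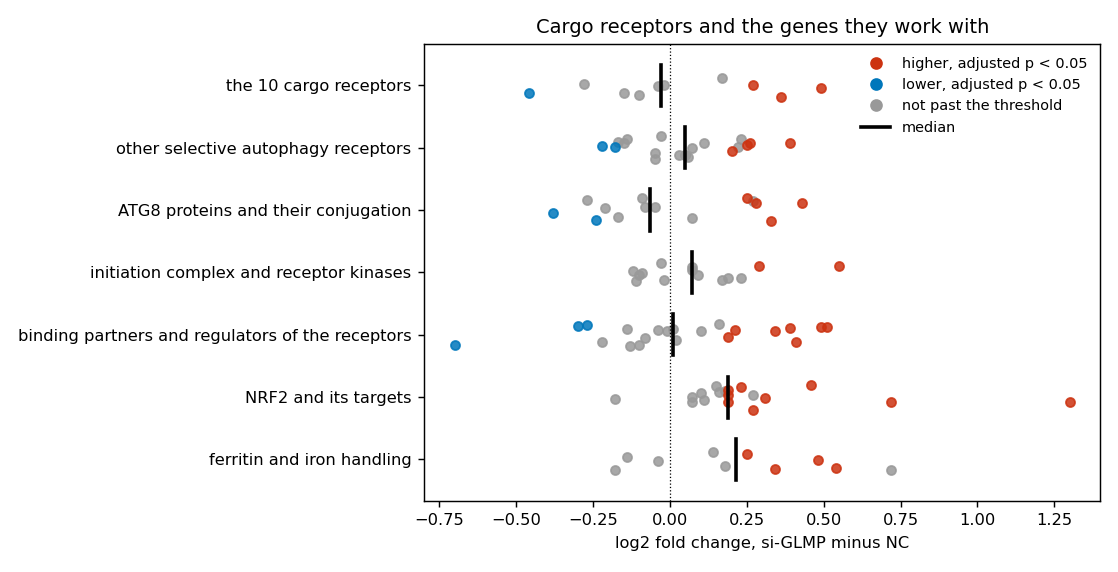
Log2 fold change, si-GLMP minus NC (x axis), of each tested gene of the 10 cargo receptors and of the 6 gene lists (rows; points are genes with random vertical offsets, black bars are medians). The medians of the receptors (-0.03) and of 4 of the lists lie within 0.07 of 0, and those of NRF2 and its targets (0.19) and of ferritin and iron handling (0.21) lie to the right of it.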

How the data were processed

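RNA was taken from PC9OR cells with Trizol and made into Illumina mRNA libraries, per the labels' protocols. The authors deposited whole-number read counts per gene, not normalized, with 1 column per library, and 0 columns were left without a sample. Per the submitters' processing notes, reads went through HISAT2 on GRCh38; which tool counted them, with which annotation and strand setting, was not given in the sources used here. Groups and replicate numbers came from the sample titles.

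Counts were fitted in edgeR 4.0.16 (R 4.3.3) with TMM scaling, filterByExpr (minimum count 10) and a robust quasi-likelihood F test of si-GLMP against NC, adjusted over 15900 genes by the Benjamini-Hochberg method. The biological coefficient of variation was 6.91%. Standard errors were derived from the log2 change and its F value, and 95% intervals use the t distribution of the fit. The statistics were tested on simulated data. Positions, lengths and overlaps came from GENCODE 29 (GRCh38), which may differ from the authors' annotation.

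The receptors and the 6 gene lists were chosen with earlier results of these data known. The genes named were the 10 receptors, GLMP, genes whose exons overlap theirs and up to 4 genes per list with the smallest adjusted p; others are marked. Alternatives were scaling by RLE or upper quartile, a filter of 1 CPM in 3 libraries or none, each library left out, the replicate block, DESeq2 1.42.0 and limma-voom (limma 3.58.1). Removal of a GC and length trend was chosen after seeing the data.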

Additional observations from a re-analysis of the deposited data

How the results depend on the processing

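The counts of receptors called, 3 higher and 1 lower, were the same under RLE and upper-quartile scaling, both other filters, DESeq2, limma-voom and the GC and length trend. Leaving out each library in turn gave 2 to 3 higher receptors and 1 lower in each case. The log2 fold change of SQSTM1 lay between 0.43 and 0.53 over its 14 alternatives, that of OPTN between 0.30 and 0.40, that of TOLLIP between 0.24 and 0.30 and that of NCOA4 between -0.50 and -0.39. The sign turned for genes that were never called: CALCOCO2 had 0.01 without NC replicate 2 (-0.06 to 0.01 over the libraries left out), WDFY3 had 0.07 after removal of the GC and length trend and 0.02 without si-GLMP replicate 1 (-0.09 to 0.02), and JAZF1, which overlaps TAX1BP1, had 0.04 without NC replicate 2 (-0.58 to 0.04). Over all genes, 1910 were higher and 1802 lower, and leaving out a library gave 1482 to 1788 higher and 1283 to 1660 lower. With the replicate number as a block, 3 receptors were higher and 1 lower, and 2052 and 1920 of all genes; the block ended none of the receptor calls, and FTH1 passed with it (adjusted p = 0.022). Deviations of same-numbered libraries from their group means had correlations of 0.039, 0.026 and 0.001. Numbers 1 and 2 correlated best with their own number, but all values were near 0. Whether the numbers pair the samples cannot be settled from these values. NC replicate 3 correlated better with si-GLMP replicate 2 (0.010) than with its own number. RETREG1 and FUNDC1 had the fewest counts of the 10 receptors, between 106 and 277 per library, and the widest 95% intervals; whether depth kept them from a call was not tested.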
